A study of Homo sapiens with 8 samples.

Results

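Antisense long noncoding RNA genes are named after the gene on the other strand, with the ending -AS and a digit, and 356 of the 14526 genes in the expression table carried such a symbol. The row of the gene named before -AS was present for 324 of them, which gave 324 pairs with 320 different sense genes, since ZNF503, PTOV1, TSPEAR and PAXIP1 each had more than 1 antisense row. The other 32, such as HOXA-AS3 and HOXB-AS3, had no sense row. RNA came from 8 cultures labelled HepG2, a human hepatocellular carcinoma line. The 4 control replicates and the 4 replicates treated with sodium benzoate (SB) at 10 mM for 24 h were grown in the same serum-containing medium. Sodium benzoate is a food preservative that the study used to raise benzoylation of histone lysines, and the question for these genes was which antisense RNAs changed and whether their sense genes changed with them.

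Many human promoters fire in both directions, so that a noncoding transcript leaves on one strand and a messenger RNA on the other. Other antisense RNAs start inside or beyond the sense gene and run across its exons or introns. A few act on their neighbour in cis, by recruiting chromatin modifiers or by pairing with its transcript, while many are short-lived transcripts that the nuclear exosome degrades soon after synthesis.

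The libraries held between 36990091 and 44878446 reads on the genes of the table, recovered from the RPKM values (reads scaled to gene length and library size). The HepG2 label was checked against 20 hepatocyte markers, of which 17, with ALB, AFP and APOA1 among them, had no row, and the 3 present, with TF and ASGR1 among them, summed to between 1.48 and 1.95 RPKM in the control and between 2.23 and 2.6 RPKM in the SB-treated replicates. Defining hepatocyte genes were therefore absent from the table, and the cells are called here by their label. Of 7 fibroblast markers 4 had a row, with sums between 6.63 and 8.97 RPKM in the control and between 6.62 and 6.98 RPKM in the SB-treated replicates. The 3 of 6 leukocyte markers that had a row summed to between 3.28 and 3.77 RPKM and between 3.35 and 4.14 RPKM. Control replicate 1 lay far from the other control replicates for 13 of the 356 antisense genes (3.65%), the most of any library. The kit used marks strand, but the sources do not say whether the counting used it, and without it reads from an antisense gene and its sense gene cannot be told apart where their exons overlap.

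Of the 356 antisense genes, 349 were found in GENCODE release 44 on hg38, the build the authors used, 280 by symbol and 69 by an older name. Of these, 336 were annotated as lncRNA and 6 as protein coding, and 50 now carry the ending -DT for divergent transcript. Their place relative to the sense gene could be read for 341. In 235 the nearest annotated starts of antisense and sense gene lay within 1000 bp of each other on opposite strands, with a median distance of 97 bp, and this placing is called head-to-head. The nearest starts of 164 of these pairs pointed away from each other, and those of 71 overlapped. Another 78 antisense genes overlapped exons of the sense gene from a more distant start. A further 24 overlapped the span of the sense gene without a shared exon base, and 4 were placed otherwise. The 24 are called intronic here, though which gene lay in an intron of the other was not checked. Of the placed genes, 219 shared at least 1 exon base with the sense gene, and for 12 of them the shared bases made up 50% or more of their exons.

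The stretches between the nearest annotated starts are shown for 7 head-to-head pairs among those with the largest changes, with starts apart by at most 150 bp. These are the closest starts of any annotated transcripts of both genes, and which starts the cells used was not tested. Each is read from hg38 on the strand of the antisense gene, 5′ to 3′. It runs from the 30th base of the sense transcript to the 30th base of the antisense transcript, and capitals mark both start positions and the bases between them.
GABPB1-AS1 and GABPB1, chr15:50355173-50355234, plus strand: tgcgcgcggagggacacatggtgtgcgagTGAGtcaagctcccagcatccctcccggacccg
INTS6-AS1 and INTS6, chr13:51452303-51452393, plus strand: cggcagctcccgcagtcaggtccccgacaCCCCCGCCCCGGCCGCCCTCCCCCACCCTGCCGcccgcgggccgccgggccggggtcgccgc
PSMG3-AS1 and PSMG3, chr7:1570016-1570102, plus strand: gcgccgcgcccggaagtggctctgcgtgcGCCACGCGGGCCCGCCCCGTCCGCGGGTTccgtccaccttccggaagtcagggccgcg
EXOC3-AS1 and EXOC3, chr5:443131-443204, minus strand: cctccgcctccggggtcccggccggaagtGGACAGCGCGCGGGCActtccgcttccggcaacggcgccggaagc
MAPKAPK5-AS1 and MAPKAPK5, chr12:111841954-111842042, minus strand: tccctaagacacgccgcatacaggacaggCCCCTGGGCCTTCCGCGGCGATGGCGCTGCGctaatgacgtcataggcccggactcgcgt
SOCS2-AS1 and SOCS2, chr12:93570932-93571009, minus strand: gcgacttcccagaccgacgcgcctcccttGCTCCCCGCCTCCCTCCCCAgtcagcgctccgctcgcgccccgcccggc
THAP9-AS1 and THAP9, chr4:82900542-82900713, minus strand: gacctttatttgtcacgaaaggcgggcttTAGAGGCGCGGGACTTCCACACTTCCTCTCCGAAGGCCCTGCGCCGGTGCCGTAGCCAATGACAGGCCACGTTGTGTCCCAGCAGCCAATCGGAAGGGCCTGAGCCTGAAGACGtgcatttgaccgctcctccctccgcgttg
The starts lay between 3 bp (GABPB1) and 113 bp (THAP9) apart, and the GC content of the stretches ranged from 61% (THAP9) to 86.8% (INTS6). The pairs GABPB1, INTS6, PSMG3 and EXOC3 moved in opposite directions and the pairs SOCS2 and THAP9 in the same direction. At MAPKAPK5 only the antisense gene was called, as the values below show.

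Over the 300 bases around the annotated start in RefSeq (250 before to 50 after it, build hg38), 269 antisense genes had a promoter window, 177 of them head-to-head. The median GC content was 68.0% in the head-to-head windows, 58.8% in the 92 windows of antisense genes placed otherwise and 58.3% over all 27195 windows, and the median number of CpG dinucleotides was 28, 19 and 14. The motif GGGCGG, the core of the GC box, was found on either strand in 68.9% of the head-to-head windows and in 44.7% of all windows. The motif TATAAA was found in 5.08% and 12%, and CCAAT in 26.0% and 35.7%. Among the head-to-head windows, GGGCGG was present in 66.7% of the 75 whose gene rose, in 73.5% of the 34 whose gene fell and in 69.1% of the 68 whose gene was not called. These shares are descriptions of the sequence and were not tested. The windows over all genes include genes without a row in the expression table, whereas every antisense gene counted had a row.

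Antisense genes were expressed at low levels, with a median of 1.56 RPKM in the control replicates against 8.3 RPKM over all genes, and a median of 126.7 reads per library against 1227. In SB-treated cells 135 of the 356 antisense genes were higher (37.9%) and 65 lower (18.3%), while over all 14526 genes 33.0% were higher and 32.6% lower, by limma on log2(RPKM + 1) with a Benjamini-Hochberg adjusted p below 0.05. Together 56.2% of the antisense genes passed the test, against 65.6% of all genes. The groups did not overlap for 116 antisense genes on the side of a rise and for 57 on the side of a fall, which is 32.6% and 16.0%, beside 31.0% and 30.5% over all genes. The median log2 fold change was 0.08, against 0.00 over all genes. In bulk RNA, fewer cells expressing a gene and less RNA per cell cannot be told apart. The number of calls on each side moved with the library scaling: without the authors' TMM scaling factors 171 antisense genes were higher and 50 lower, and over all genes 6253 were higher and 3357 lower, since the median of all genes moved to 0.079.

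The threshold on expression that the authors set, more than 1 CPM (reads scaled to library size alone) in at least 2 of the 8 samples, can be met by the group in which a gene is high. It was met within each group by 315 of the antisense genes, of which 113 were higher (35.9%) and 59 lower (18.7%), beside 32.1% and 33.5% of the 13908 genes of the table that did so. Among the 29 that met it only with the SB-treated samples 22 were higher (75.9%, beside 68.6% of 471 over all genes), and among the 8 that met it only with the control samples 6 were lower (75%, beside 69.2% of 117). These shares lie near those of all genes, and such genes could pass only through the group in which they were high. Among the genes named here this holds for the rises of ATE1-AS1, RNF157-AS1, A2M-AS1, DOCK9-AS2 and SOX9-AS1. It also holds for the falls of SOCS2-AS1, RALY-AS1 and PCOLCE-AS1.

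The excess of rises over falls among antisense genes was near that of all genes at like levels. Below 1 RPKM 38 of 110 antisense genes were higher and 15 lower, so that 71.7% of those called were higher, against 76.0% over the 1981 genes of that level. Between 1 and 5 RPKM 76 of 185 were higher and 26 lower, and the share of calls that were rises was 74.5% against 70.1%. At 5 RPKM and over 21 of 61 were higher and 24 lower, and the shares were 46.7% and 38.6%. Nothing particular to antisense genes is read from these counts, and no test of the difference was made. The levels were matched by RPKM and not by reads, with a median between 1 and 5 RPKM of 148 reads for antisense genes and 339.5 over all genes.

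**Figure D1:**
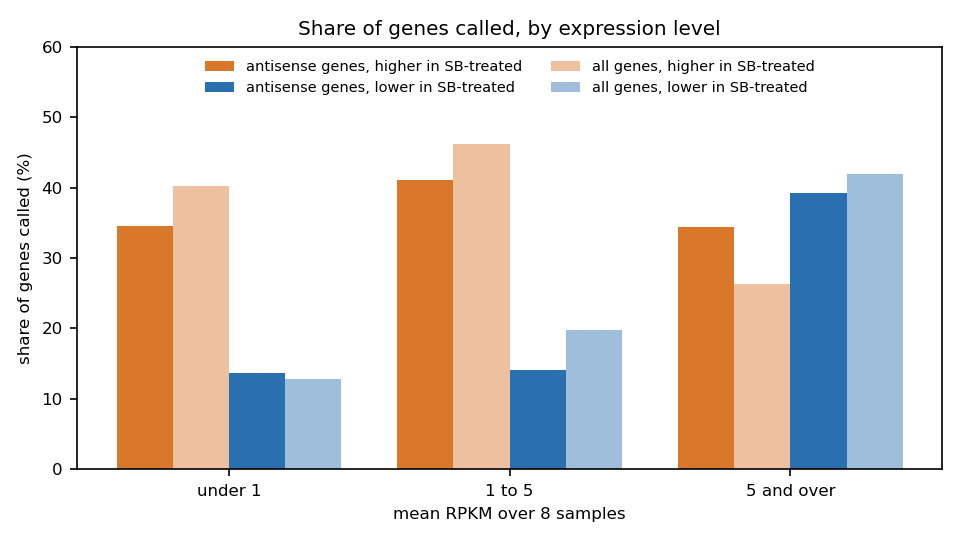
Share of genes (y axis, percent) that were higher (orange) or lower (blue) in SB-treated cells by limma at an adjusted p below 0.05, for antisense genes (dark) and all genes (light), by mean RPKM over the 8 samples (x axis). In both kinds of genes rises outnumber falls below 5 RPKM, and at 5 RPKM and over falls outnumber rises.

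On the log2(RPKM + 1) scale, which gives genes of low level smaller changes than their ratios, the largest rises among the antisense genes with groups that did not overlap were found for FBXL19-AS1, TAPT1-AS1 and GATA2-AS1. FBXL19-AS1 lies head-to-head with FBXL19, which encodes a protein that binds unmethylated CpG islands. It measured 1.24, 1.21, 1.15 and 1.29 RPKM in the control and 3.5, 3.7, 3.82 and 3.49 RPKM in the SB-treated replicates, a 2.97-fold higher mean (log2 fold change 1.06 ± 0.038 SE, limma adjusted p = 1.03e-07). FBXL19 itself went from 12.3 ± 0.87 to 16.3 ± 0.605 RPKM (SD, n = 4; limma adjusted p = 0.000141), a 1.32-fold rise, so the antisense RNA rose from 9.95% to 22.3% of the level of its sense gene.

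TAPT1-AS1 measured 0.738, 1.09, 0.901 and 0.97 RPKM in the control and 2.52, 2.85, 2.69 and 2.74 RPKM in the SB-treated replicates, 2.92-fold higher (limma adjusted p = 1.13e-06), and all SB-treated values were above all control values. TAPT1 rose 1.27-fold. GATA2-AS1 lies head-to-head with the gene for the zinc finger transcription factor GATA2. It measured 7.2, 6.08, 6.49 and 6.36 RPKM in the control and 12.8, 13.6, 13.3 and 13 RPKM in the SB-treated replicates, 2.02-fold higher (limma adjusted p = 6.65e-07). GATA2 was at 32.6 ± 0.673 RPKM in the control and at 31.2 ± 0.844 RPKM in the SB-treated replicates and did not pass the test (limma adjusted p = 0.144), though without control replicate 1 it did with a log2 fold change of -0.07 (limma adjusted p = 0.0364). The ratio of GATA2-AS1 to GATA2 went from 20.1% to 42.2%, a description, since GATA2-AS1 was chosen for its change.

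Other large rises were those of PTOV1-AS2, ATE1-AS1, MCM3AP-AS1 and TRAF3IP2-AS1. PTOV1-AS2 went from 4.33 ± 0.193 to 7.91 ± 0.266 RPKM (1.83-fold) while PTOV1 rose from 49.1 ± 7.41 to 61.9 ± 1.62 RPKM, and control replicate 1 was lowest for PTOV1 at 38.1 RPKM. MCM3AP-AS1, antisense to the gene of an mRNA export factor, went from 3.55 ± 0.233 to 6.35 ± 0.287 RPKM (1.79-fold), and MCM3AP rose 1.17-fold. TRAF3IP2-AS1 went from 1.76 ± 0.0894 to 3.25 ± 0.0977 RPKM (1.84-fold), whereas TRAF3IP2, an adaptor of interleukin 17 signalling, fell from 3.67 ± 0.143 to 3.18 ± 0.054 RPKM (limma adjusted p = 0.00245; 0.0684 without the TMM factors). ATE1-AS1 had the largest ratio, 4.98-fold, from 0.192 ± 0.0308 to 0.954 ± 0.187 RPKM, but it rested on a mean of 7.25 reads in the control and 37.5 reads in the SB-treated libraries. ATE1, the gene of arginyltransferase, rose 1.08-fold, a call that was lost without any of 3 replicates (limma adjusted p up to 0.0617).

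On the log2(RPKM + 1) scale the largest falls were those of THAP9-AS1, EPB41L4A-AS1 and SLC16A1-AS1, which are among the more abundant antisense RNAs. THAP9-AS1, divergent to the gene of a transposase-like DNA-binding protein, measured 102, 71.9, 72.4 and 70.4 RPKM in the control and 43, 40, 41 and 40.6 RPKM in the SB-treated replicates, 1.93-fold lower (log2 fold change -0.91 ± 0.106 SE, limma adjusted p = 5.41e-05). Control replicate 1 stood above the other control replicates, and the fall without it also passed the test. THAP9 fell with it, from 5.82 ± 0.849 to 4.37 ± 0.226 RPKM (limma adjusted p = 0.0035).

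EPB41L4A-AS1 measured 35.9, 34.1, 36.8 and 32.7 RPKM in the control and 17.4, 18.8, 18.0 and 19.0 RPKM in the SB-treated replicates, 1.91-fold lower (limma adjusted p = 6.48e-07). EPB41L4A, a band 4.1 family gene, was at 3.41 ± 0.211 and 3.2 ± 0.232 RPKM and did not pass the test (limma adjusted p = 0.245). In this pair 51.2% of the exon bases of the antisense gene lay under exons of the sense gene. SLC16A1-AS1 measured 14.2, 14.8, 15.7 and 15.8 RPKM in the control and 7.89, 8.16, 7.95 and 8.18 RPKM in the SB-treated replicates, 1.88-fold lower (limma adjusted p = 4.39e-07). SLC16A1, the monocarboxylate transporter that carries lactate and pyruvate, fell 1.1-fold, from 96.6 ± 1.84 to 88.2 ± 1.95 RPKM, and was not called without the TMM factors (limma adjusted p = 0.49).

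Among the other falls, ZNF503-AS1 went from 16.3 ± 0.655 to 8.88 ± 0.44 RPKM, EXOC3-AS1 from 5.48 ± 0.324 to 3.03 ± 0.283 RPKM and MAPKAPK5-AS1 from 15.5 ± 0.835 to 9.7 ± 0.474 RPKM. EXOC3, a subunit of the exocyst complex that tethers secretory vesicles, rose 1.11-fold while its divergent partner fell (limma adjusted p = 0.0103). MAPKAPK5, a stress-activated kinase gene, was at 16.0 ± 1.02 and 16.3 ± 0.419 RPKM and did not pass the test, except without the TMM factors (log2 fold change 0.12, limma adjusted p = 0.0317). SOCS2-AS1 (2.89 ± 0.629 to 1.31 ± 0.182 RPKM) and RALY-AS1 (2.16 ± 0.257 to 1.07 ± 0.244 RPKM) fell to means of 31.5 and 30.5 reads per library.

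By the ratio of mean RPKM the order was different, and genes named from it were chosen after their values were seen. After ATE1-AS1 and FBXL19-AS1 it put RNF157-AS1, which went from 0.16 ± 0.0598 to 0.467 ± 0.0786 RPKM (2.93-fold) on a mean of 13.75 reads in the control, on a level with TAPT1-AS1. C21orf62-AS1 (2.28-fold), IQCH-AS1 (2.14-fold, from 0.846 ± 0.063 to 1.81 ± 0.0283 RPKM) and A2M-AS1 (2.08-fold) also lay above GATA2-AS1. PCOLCE-AS1 had the largest fall by ratio, 3.4-fold, from 0.697 ± 0.107 to 0.205 ± 0.0315 RPKM and from a mean of 70.25 to 21.5 reads, and its sense gene PCOLCE, which encodes an enhancer of procollagen processing, fell 1.3-fold. SOCS2-AS1 (2.21-fold), NR2F2-AS1 (2.08-fold) and RALY-AS1 (2.01-fold) followed it, ahead of THAP9-AS1. All of these passed the limma test.

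**Figure D2:**
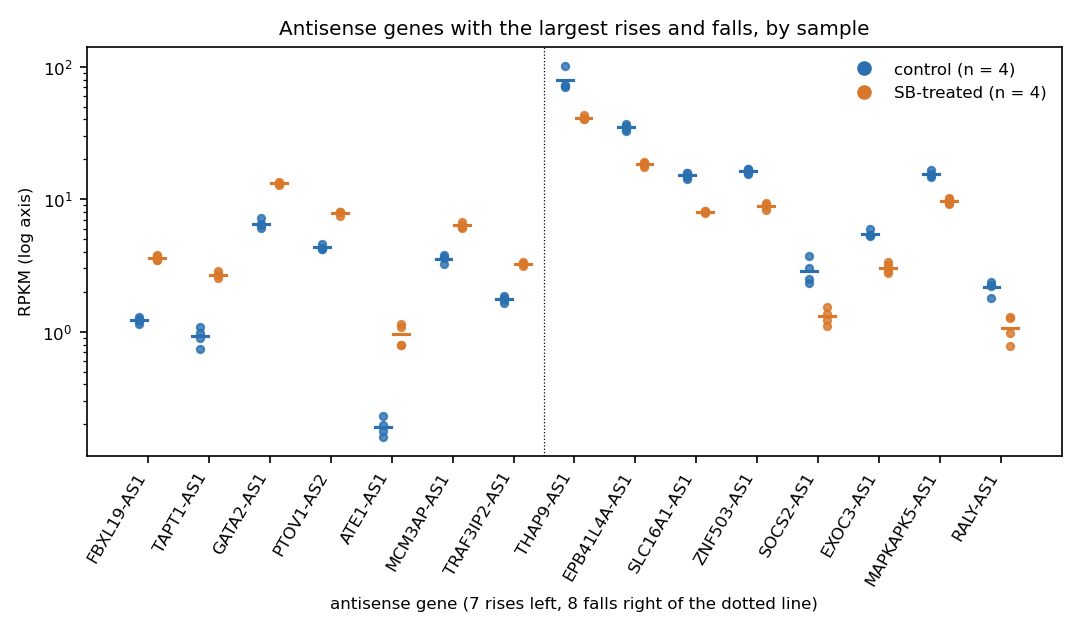
RPKM (y axis, log scale) of 7 of the 8 antisense genes with the largest rises and of the 8 with the largest falls in log2(RPKM + 1) (x axis) in each of the 4 control (blue) and 4 SB-treated (orange) replicates; points are replicates and bars their means. The groups do not overlap for any of these genes, which follows from how they were chosen, and THAP9-AS1 has 1 control replicate at 102 RPKM above the other 3.

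Of the 320 sense genes 104 were higher (32.5%) and 116 lower (36.2%), beside 33.0% and 32.6% of all genes and 26.3% and 41.9% of all genes at 5 RPKM and over, with a median log2 fold change of -0.02. Without the TMM factors 139 were higher and 73 lower. Sense genes were far more abundant, with a median of 9.64 RPKM in the control, and in 260 of the 324 pairs the antisense gene was below the sense gene in every sample, while in 45 it was above it in every sample. The median antisense level was 15.9% of the sense level in the control and 18.0% in the SB-treated replicates. The ratio of antisense to sense rose without overlap between the groups in 118 pairs, fell in 66 and overlapped in 140. Over all genes between 1 and 5 RPKM the groups were apart upwards in 42.6% and downwards in 16.9%. At 5 RPKM and over these shares were 25.2% and 39.8%. Ratios of other genes of low level to genes of high level were not counted, so nothing particular to the pairs is read here.

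The directions of the pair members were mixed. Both genes passed the test in 127 pairs, of which 65 changed in the same direction (44 higher and 21 lower) and 62 in opposite directions. In the opposite pairs the antisense gene was the higher one in 44 and the sense gene in 18. Taken singly, 37.9% of the antisense genes were higher and 18.3% lower, and 32.5% and 36.2% of the sense genes. Over all genes these shares were 33.0% and 32.6%. Nothing particular to the pairing is read from the pair counts, and this was not tested. Only the antisense gene passed the test in 58 pairs (38 higher, 20 lower), only the sense gene in 97 (45 higher, 52 lower) and neither in 42. Across the 324 pairs the log2 fold changes estimated by voom, a method for counts, on the recovered reads had a Pearson correlation of 0.113 and a Spearman correlation of 0.0743, a description over pairs that share the same 8 libraries and, where exons overlap, possibly the same reads.

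**Figure D3:**
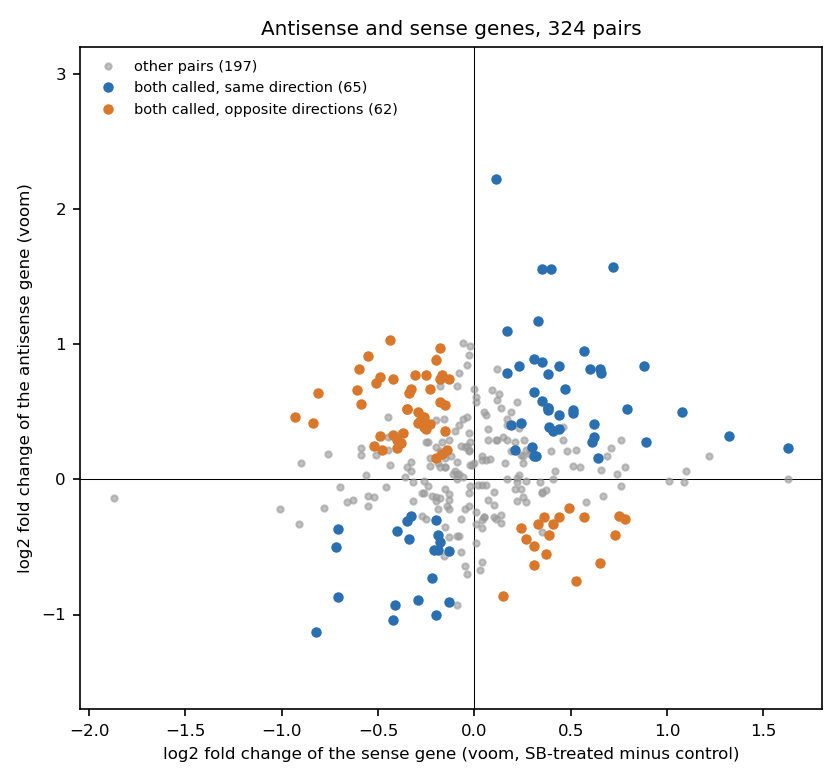
Log2 fold change (SB-treated minus control, voom on recovered reads) of each antisense gene (y axis) against that of its sense gene (x axis) for 324 pairs. Pairs with both genes called are blue when the directions agree (65) and orange when they are opposite (62), and the points fill all 4 quadrants.

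The directions were also counted by placing, without a test. Of 227 head-to-head pairs 92 had both genes called, 46 in the same direction and 46 in opposite directions. Among the 68 pairs with exon overlap and a distant start the numbers were 12 and 10, and among the 18 intronic pairs 3 and 5. The head-to-head antisense genes themselves were higher in 95 and lower in 45 of 235, those with exon overlap in 25 and 12 of 78, and the intronic ones in 8 and 4 of 24. These are shares of 40.4% and 19.1%, 32.1% and 15.4%, and 33.3% and 16.7%, beside 33.0% and 32.6% over all genes. Over all genes below 1 RPKM 40.3% were higher and 12.8% lower, and between 1 and 5 RPKM 46.2% and 19.7%, so nothing particular to a placing is read from the counts.

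On the log2(RPKM + 1) scale strong opposite changes were seen at GABPB1, INTS6, NFYC, PSMG3 and RHPN1. All were placed head-to-head, as were 227 of the 324 pairs. GABPB1-AS1 measured 4.32, 3.53, 3.91 and 3.61 RPKM in the control and 6.98, 5.77, 5.83 and 5.82 RPKM in the SB-treated replicates (1.59-fold higher, limma adjusted p = 7.59e-05). GABPB1, a subunit of the ETS family transcription factor GABP, measured 13.9, 11.4, 11.4 and 11.3 RPKM and then 7.73, 7.97, 7.85 and 7.75 RPKM (1.53-fold lower, limma adjusted p = 4.08e-05). The antisense level thus went from 32.1% ± 1.5 to 78.0% ± 8.28 of the sense level (SD, n = 4), although the annotated starts lie 3 bp apart. Replicate 1 was the highest of its group for GABPB1-AS1 in the SB-treated samples and for GABPB1 in the control samples.

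INTS6-AS1 rose from 2.17 ± 0.257 to 3.85 ± 0.205 RPKM while INTS6, a subunit of the Integrator complex that cleaves nascent RNA, fell from 6.78 ± 0.592 to 4.47 ± 0.217 RPKM, which took the ratio from 32.0% to 86.2%. NFYC-AS1 rose from 2.31 ± 0.223 to 3.79 ± 0.225 RPKM while NFYC, a subunit of the CCAAT-binding factor NF-Y, fell from 20.4 ± 1.33 to 14.4 ± 0.471 RPKM. In this pair 16.9% of the antisense exon bases lay under sense exons. PSMG3-AS1 rose from 1.55 ± 0.169 to 2.57 ± 0.164 RPKM against a fall of PSMG3, a proteasome assembly chaperone, from 65.6 ± 4.59 to 49.0 ± 0.821 RPKM. RHPN1-AS1 was the reverse case, falling from 1.2 ± 0.245 to 0.706 ± 0.0848 RPKM while RHPN1 rose from 3.73 ± 0.411 to 5.35 ± 0.412 RPKM. All genes of these pairs passed the limma test, with adjusted p-values up to 0.00207 (RHPN1-AS1). By ratios of mean RPKM, looked up after the values were seen, SOX9 and LIPE would stand above GABPB1. The SB-treated mean divided by the control mean was 1.58 for SOX9-AS1 and 0.572 for SOX9. It was 0.647 for LIPE-AS1 and 1.58 for LIPE.

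**Figure D4:**
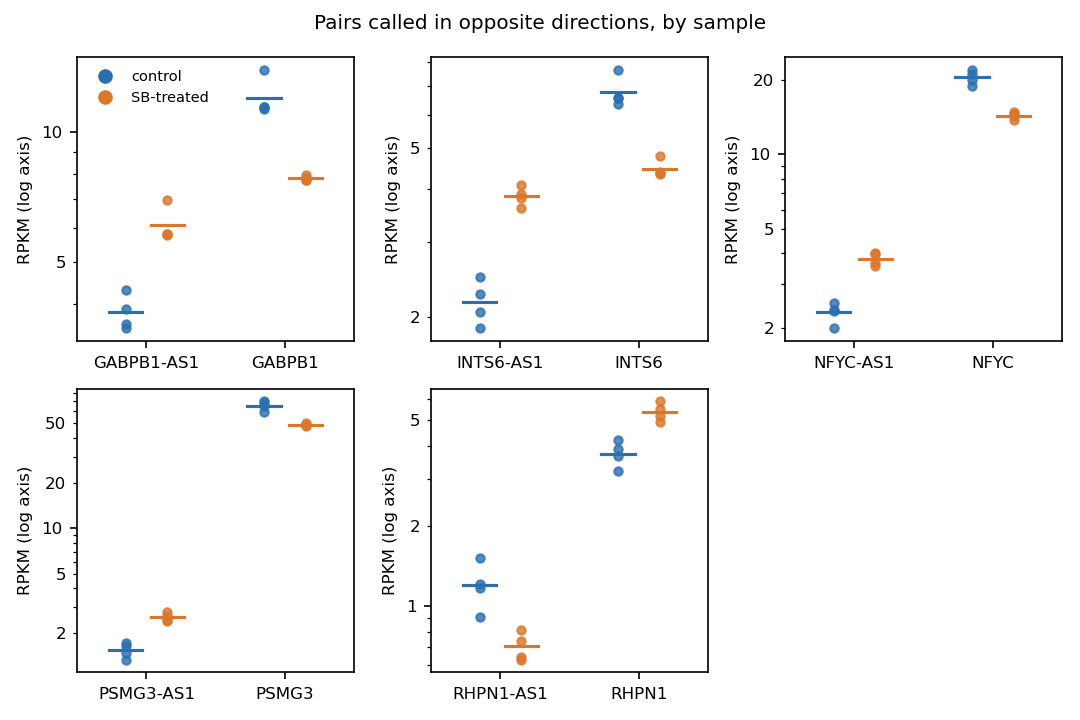
RPKM (y axes, log scale) of 5 pairs with strong opposite changes, antisense gene on the left and sense gene on the right of each panel, in the 4 control (blue) and 4 SB-treated (orange) replicates; points are replicates and bars their means. In 4 panels the antisense gene rises and the sense gene falls, and at RHPN1 the order is turned.

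Ordered by the smaller of both log2(RPKM + 1) changes, the strongest changes in 1 shared direction were seen at ZNF503, SOCS2, CARD8, ZSWIM8, AGAP2 and TAF1A. SOCS2, a feedback inhibitor of cytokine and growth hormone signalling, measured 6.52, 5.37, 5.15 and 5.26 RPKM in the control and 3.23, 3.01, 3.22 and 3.14 RPKM in the SB-treated replicates, 1.77-fold lower (limma adjusted p = 1.36e-05). SOCS2-AS1, 19 bp away, measured 3.73, 2.48, 2.34 and 3.03 RPKM and then 1.36, 1.23, 1.11 and 1.54 RPKM, 2.21-fold lower (limma adjusted p = 0.00018). Both genes were lower in all 4 SB-treated replicates than in any control replicate.

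ZNF503, a zinc finger repressor gene, fell from 69.9 ± 4.01 to 42.7 ± 3.09 RPKM together with ZNF503-AS1, and the ratio of the pair overlapped between the groups (23.4% and 20.9%). TAF1A, a subunit of the RNA polymerase I selectivity factor, fell from 13.6 ± 1.52 to 8.23 ± 0.299 RPKM, and TAF1A-AS1 from 4.28 ± 0.208 to 3.03 ± 0.185 RPKM. CARD8, an inflammasome sensor gene, rose from 4.7 ± 0.369 to 6.96 ± 0.239 RPKM, and CARD8-AS1 from 1.01 ± 0.122 to 1.97 ± 0.103 RPKM. ZSWIM8, the substrate receptor of a ubiquitin ligase, rose from 6.09 ± 0.512 to 9.58 ± 0.259 RPKM with ZSWIM8-AS1 (1.06 ± 0.243 to 1.81 ± 0.196 RPKM), and AGAP2 from 1.1 ± 0.132 to 2.02 ± 0.0812 RPKM with AGAP2-AS1 (0.841 ± 0.143 to 1.5 ± 0.119 RPKM). In the last 2 pairs 64.6% and 57.7% of the antisense exon bases lay under sense exons, and the part of shared reads in these values was not tested. MID1IP1-AS1, all of whose annotated exon bases lie under exons of MID1IP1, had at least 42 reads in every library. By ratios of mean RPKM, looked up after the values were seen, RNF157 (1.65-fold, and 2.93-fold for its antisense gene), FOXD2 (1.57-fold and 1.76-fold) and DOCK9 (1.51-fold, and 1.74-fold for DOCK9-AS2) would stand above CARD8 and TAF1A.

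A change in 1 gene of a pair and none in the other is not by itself a difference between them, so the ratio was compared between the groups in the 42 pairs among the named genes. It did not overlap between the groups in 32 of them, beside 118 pairs apart upwards and 66 apart downwards among all 324. Most named pairs were chosen for the size or direction of their changes, so the count is a description and no p is given. Values of the ratio for pairs in which only the antisense gene passed the limma test were 97.0% ± 8.68 and 59.6% ± 3.71 for MAPKAPK5, 28.9% ± 3.7 and 18.2% ± 1.46 for PXN, the paxillin gene, and 23.3% ± 1.57 and 31.8% ± 1.99 for NNT, the mitochondrial transhydrogenase gene, which was called without the TMM factors. Each of these 3 was among the 32. For FGD5, whose antisense gene was at 6610% of its level in the control, the ratio overlapped between the groups.

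The most abundant antisense RNA was LRRC75A-AS1, now named SNHG29, which hosts the small nucleolar RNAs SNORD49A, SNORD49B and SNORD65 in its introns. It measured 162, 173, 176 and 175 RPKM in the control and 133, 134, 134 and 132 RPKM in the SB-treated replicates, 1.29-fold lower (limma adjusted p = 2.15e-05), and the groups did not overlap. LRRC75A rose from 1.85 ± 0.0902 to 2.19 ± 0.0742 RPKM (limma adjusted p = 0.00298). After THAP9-AS1 the next in level were WAC-AS1, RPARP-AS1 and VPS9D1-AS1. WAC-AS1 was at 46.9 ± 2.07 and 45.6 ± 0.557 RPKM and RPARP-AS1 at 31.9 ± 0.58 and 31.4 ± 1.05 RPKM, and neither passed the test under any scaling. VPS9D1-AS1 fell from 36.1 ± 4.75 to 24.4 ± 1.06 RPKM while VPS9D1 rose from 1.83 ± 0.241 to 2.34 ± 0.121 RPKM.

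Antisense genes that contain a small nucleolar RNA gene on their own strand, looked up after the values were seen, numbered 4. Of these LRRC75A-AS1, UBA6-AS1 (10.2 to 7.6 RPKM, limma adjusted p = 5.6e-05) and EPB41L4A-AS1 fell, while TMEM161B-AS1 was at 5.82 and 5.26 RPKM and did not pass the test (limma adjusted p = 0.103). The SNHG genes, which are small nucleolar RNA hosts named as such, had 17 rows, of which 12 were lower and 1 higher with a median log2 fold change of -0.41. Intergenic long noncoding RNAs named LINC followed the antisense genes more closely, with 71 of 170 higher and 30 lower and a median of 0.09. These counts stand beside the 33.0% higher and 32.6% lower of all genes. The SNHG genes had a median of 28.6 RPKM in the control. At 5 RPKM and over 26.3% of all genes were higher and 41.9% lower. The LINC genes had a median of 1.56 RPKM in the control. Between 1 and 5 RPKM 46.2% of all genes were higher and 19.7% lower.

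Of 42 well-studied antisense RNAs 28 had a row, and of these 15 were higher (53.6%), 5 lower (17.9%) and 8 not called, with a median log2 fold change of 0.13. Over all antisense genes 37.9% were higher and 18.3% lower with a median of 0.08, and over all genes 33.0% and 32.6% with a median of 0.00. The well-studied antisense RNAs had a median of 2.74 RPKM in the control. Over all genes between 1 and 5 RPKM 46.2% were higher and 19.7% lower, with a median log2 fold change of 0.11. The difference was not tested. FGD5-AS1, a cytoplasmic RNA described as a microRNA sponge, measured 18.3, 17.4, 15.7 and 17.4 RPKM in the control and 25.9, 25.1, 25.4 and 25.9 RPKM in the SB-treated replicates, 1.49-fold higher (limma adjusted p = 6.71e-06). FOXD2-AS1 rose 1.76-fold, from 2.4 ± 0.153 to 4.22 ± 0.179 RPKM, with FOXD2 (1.13 ± 0.0336 to 1.77 ± 0.0967 RPKM). CDKN2B-AS1, known as ANRIL, which recruits Polycomb proteins to the locus of the cell cycle inhibitor gene CDKN2B, rose from 2.19 ± 0.152 to 2.91 ± 0.0523 RPKM, and CDKN2B rose from 1.83 ± 0.226 to 2.8 ± 0.077 RPKM. Thus both members were higher at FOXD2 and at CDKN2B.

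ZEB1-AS1 rose from 5.38 ± 0.467 to 6.55 ± 0.104 RPKM (limma adjusted p = 0.00194) while ZEB1, a repressor of epithelial genes, fell from 14.4 ± 1.69 to 10.9 ± 0.133 RPKM (limma adjusted p = 0.000986). The same order was found at TMPO, a nuclear lamina gene (TMPO-AS1 2.12 ± 0.15 to 3.04 ± 0.109 RPKM, TMPO 80.4 ± 11.7 to 62.9 ± 1.66 RPKM), at TPT1 (TPT1-AS1 3.39 ± 0.319 to 4.44 ± 0.147 RPKM, TPT1 236 ± 33.9 to 196 ± 4.19 RPKM) and at the proteasome gene PSMA3 (PSMA3-AS1 11.4 ± 1.43 to 13.4 ± 0.726 RPKM, PSMA3 91.3 ± 6.53 to 68.9 ± 2.09 RPKM). Control replicate 1 was the highest control value for TMPO and TPT1, and the fall of TPT1 was not called without the TMM factors (limma adjusted p = 0.11). The rise of PSMA3-AS1 was the weakest of these, and its groups overlapped, with control replicate 1 at 13.5 RPKM. Leaving out any of 6 other replicates ended its call (limma adjusted p up to 0.0774).

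Smaller rises were those of NNT-AS1 (1.41-fold), DDX11-AS1 (1.5-fold), LOXL1-AS1 (1.18-fold) and SBF2-AS1 (1.12-fold). The calls of LOXL1-AS1 and SBF2-AS1 were each lost on leaving out single replicates, with limma adjusted p-values up to 0.0754. The falls besides THAP9-AS1 were HOXA-AS3 (1.78 ± 0.106 to 1.04 ± 0.0621 RPKM) and HOXB-AS3 (9.15 ± 0.435 to 5.95 ± 0.229 RPKM), which lie in the HOXA and HOXB clusters of developmental regulators, GATA6-AS1 (1.76 ± 0.155 to 1.25 ± 0.25 RPKM) and PXN-AS1 (5.25 ± 0.747 to 3.4 ± 0.338 RPKM). GATA6 fell as well, from 12.4 ± 0.905 to 10.8 ± 0.522 RPKM, and was not called without the TMM factors (limma adjusted p = 0.19). OIP5-AS1, the cytoplasmic RNA Cyrano, was at 23.2 ± 0.623 and 23.2 ± 0.571 RPKM and did not pass the test (limma adjusted p = 0.946).

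Genes whose products degrade or process noncoding transcripts were counted as lists. Of 27 genes listed for the nuclear exosome, the complex that degrades short-lived nuclear RNA, and its cofactors, 17 were lower (63.0%) and 4 higher (14.8%), with a median log2 fold change of -0.28. The list was drawn widely. It held the cap-binding genes NCBP1 and NCBP2 and XRN2, the gene of an exonuclease outside the complex, all called lower. Over all genes 32.6% were lower and 33.0% higher. The exosome list had a median of 27.8 RPKM in the control. Over all genes at 5 RPKM and over 41.9% were lower and 26.3% higher, with a median log2 fold change of -0.07. Without control replicate 1, 18 genes of the list were lower and 4 higher and their median was -0.19. EXOSC5 had the largest fall, from 37.9 to 23.6 RPKM (log2 fold change -0.65 ± 0.105 SE, limma adjusted p = 0.000465), followed by EXOSC9 (55.8 to 37.9 RPKM) and EXOSC7 (28.5 to 19.3 RPKM). The catalytic subunit gene DIS3 fell from 32.8 to 23.4 RPKM, and SKIV2L2, the helicase that feeds RNA to the complex, from 44.8 to 34.1 RPKM. EXOSC10, the other nuclease of the complex, was at 50.3 and 48.4 RPKM and did not pass the test. The 4 that rose were ZFC3H1 (14.8 to 19.0 RPKM), which links the exosome to polyadenylated nuclear RNA, PAPD7, EXOSC6 and SRRT. Whether the levels of these genes bear on those of the antisense RNAs was not tested.

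**Figure D5:**
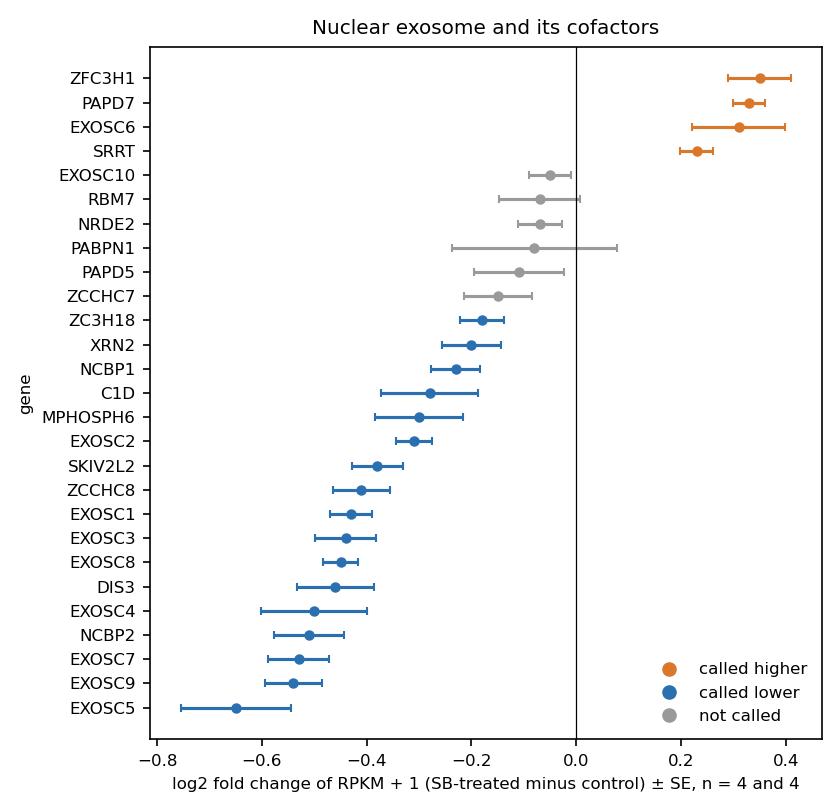
Log2 fold change of RPKM + 1 (x axis, SB-treated minus control, ± SE, 4 against 4 replicates) of 27 genes listed for the nuclear exosome and its cofactors, XRN2, NCBP1 and NCBP2 among them (y axis), coloured by the limma call. The 17 genes called lower run from ZC3H18 to EXOSC5, and the 4 called higher are SRRT, EXOSC6, PAPD7 and ZFC3H1.

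Of 17 genes that edit, bind or cut double-stranded RNA, which paired sense and antisense transcripts can form, 16 had a row. Here 6 were higher (37.5%) and 4 lower (25%) with a median log2 fold change of -0.01, and without the TMM factors 8 and 3. Over all genes the values were 33.0%, 32.6% and 0.00. This list had a median of 15.1 RPKM in the control, and over all genes at 5 RPKM and over the values were 26.3%, 41.9% and -0.07. The difference was not tested. Those that rose were the 4 Argonaute genes of the list, with AGO2 from 13.6 to 21.0 RPKM (log2 fold change 0.60 ± 0.047 SE, limma adjusted p = 5.16e-06) and AGO4 from 5.45 to 8.42 RPKM, together with DICER1 (12.2 to 15.9 RPKM) and the editing enzyme gene ADARB1 (6.98 to 9.57 RPKM). ILF2 fell from 265 to 205 RPKM, PRKRA from 25.5 to 21.5 RPKM and DROSHA from 22.8 to 21.2 RPKM, 3 of the 4 that were lower. ADAR, the main RNA editing enzyme gene, was at 74.9 and 69.8 RPKM and did not pass the test (limma adjusted p = 0.132). Without control replicate 1, 7 were higher and 8 lower.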

How the data were processed

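RNA-seq of 8 cultures (4 control, 4 SB-treated) was used. The authors made stranded libraries with 50 bp single reads, mapped them to hg38 with TopHat2 2.1.0, counted reads per gene with featureCounts 1.5.0, removed genes below their CPM threshold and scaled libraries by TMM in edgeR 3.16.5. The strand setting and the gene annotation used for counting are not given in the sources used here. The deposited values are RPKM per gene and replicate. The table's columns of the authors' own comparison (log2 fold change, mean log2 CPM, p-value and FDR) were not used, and 0 columns of per-sample values were left unused.

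RPKM values are whole reads divided by gene length and library size. Dividing low values gave whole reads (tolerance 0.02) in 100.0% of the genes, and library totals ranged from 36990091 to 44878446 reads. TMM factors were 0.957 to 0.969 in the control and 1.03 to 1.04 in the SB-treated replicates. The main test was limma 3.58.1 (R 4.3.3; lmFit, eBayes) on log2(RPKM + 1) over all 14526 genes with Benjamini-Hochberg adjustment, and a gene was called at an adjusted p below 0.05. Fold changes on this scale understate those of genes with low RPKM, so ratios of mean RPKM are given. Recovery, limma and voom were tested on simulated data. Ratios of pairs are given by whether the groups overlap; their exact permutation test is not reported, since the named pairs were chosen for their changes. The alternatives changed the pseudocount to 0.1, dropped the TMM factors, required 10 reads in every sample, fitted voom to the recovered reads, blocked on the replicate number, or omitted 1 replicate at a time.

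Genes were placed with GENCODE release 44. Named genes are the 8 largest rises and 8 largest falls among those called with groups apart, up to 6 pairs in opposite and 6 in the same direction (ordered by the smaller of both changes), the 5 with the highest RPKM, and those called from a list of well-studied antisense RNAs; lists of exosome and double-stranded RNA genes and LINC and SNHG genes are given as counts. Cell type markers were looked up as levels. Members and lists were chosen with earlier results of these data known. Sequences are from hg38 and, for promoter windows, RefSeq. Some named genes are not reported here.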

Additional observations from a re-analysis of the deposited data

Results flagged for a closer look

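In groups of 4 replicates, 1 sample stood apart from the other 3 by Dixon's test (gap divided by range, above the 95% critical value for 4 samples) in 18 of 174 groups of named antisense and sense genes, where chance gives about 1 in 20, or 8.7. Control replicate 1 was lowest for PTOV1 (0.899), MCM3AP (0.831), LRRC75A-AS1 (0.851) and DDX11 (0.851), and highest for THAP9-AS1 (0.925), GABPB1 (0.942), WAC (0.916), TMPO (0.924) and TPT1 (0.917). The other control flags were TRAF3IP2 (replicate 3 highest, 0.966), ZNF503 (replicate 4 lowest, 0.907) and CARD8 (replicate 2 lowest, 0.87). In the SB-treated samples replicate 1 was lowest for PTOV1-AS2 (0.864), ZNF503 (0.893) and FOXD2 (0.832) and highest for GABPB1-AS1 (0.947) and INTS6 (0.897), and replicate 2 was highest for RALY (0.889).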

How the results depend on the processing

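Under the alternatives the number of antisense genes higher in SB-treated cells ranged from 117 to 171 and of those lower from 50 to 75, against 135 and 65. Leaving out 1 replicate at a time gave 117 to 156 higher and 61 to 75 lower antisense genes, 95 to 117 higher and 103 to 133 lower sense genes, 55 to 84 pairs in the same and 48 to 81 in opposite directions, and 32 to 36 named pairs with ratios apart. The highest values were those without control replicate 1. Of the 200 antisense genes called, between 176 and 200 were called again under each alternative and 0 changed direction. Library sizes without TMM factors moved the most: the sense genes lower in SB-treated cells went from 116 to 73, and 84 pairs were then called in the same and 51 in opposite directions. Of 87 named genes (antisense and sense), 19 changed call or sign under some alternative. Log2 fold changes that were not called changed sign without TMM for GATA2 (0.04), EPB41L4A (0.01), WAC-AS1 (0.07) and RPARP-AS1 (0.08), and for PXN without control replicate 1 (-0.01). The replicate block gave 140 higher and 68 lower antisense genes, 72 pairs in the same and 68 in opposite directions. Deviations of same-numbered replicates correlated at 0.38, 0.327, 0.173 and -0.16. The mean correlations with differently numbered replicates were -0.147, -0.0895, -0.035 and 0.055. The same-numbered value was thus the higher for replicates 1, 2 and 3 and the lower for replicate 4. The sources state no pairing, and the main test used none. Voom gave 133 and 65, and a pseudocount of 0.1 gave 142 and 67. A mean of 126.7 reads for the median antisense gene limits what small changes could be detected.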
